A study of Mus musculus with 24 samples.

Results

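Retinas of PWK/PhJ mice were compared with retinas of 5 classical laboratory strains by RNA sequencing. The libraries were picked by their strain label, 3 from PWK/PhJ and 3 each from 129S1/Svlmj, C57BL/6J, NOD/ShiLtJ, A/J and NZO/HlLtJ, which makes 18 of the 24 libraries of the series. The other 6 libraries, 3 from CAST/EiJ and 3 from WSB/EiJ, were used only to ask whether a difference also separated PWK/PhJ from them. All mice were inbred, untreated as far as the labels say, and 28 postnatal days old, and their sex was not given in the labels. The series related retinal gene expression to contrast perception and refractive development across strains, and the labels give the libraries as separate samples without saying how the mice were related.

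All of these strains are parents of the Collaborative Cross, a panel of recombinant mouse lines. PWK/PhJ, CAST/EiJ and WSB/EiJ are wild-derived, PWK/PhJ from mice of the subspecies Mus musculus musculus, while the genomes of the classical strains derive mostly from Mus musculus domesticus. The mouse retina is built of layers, in which rods and cones pass light signals through ribbon synapses to bipolar cells and on to ganglion cells, horizontal and amacrine cells modulate the signal, and Müller glia span the tissue. Because whole retinas were measured, fewer cells of a type and less RNA per cell cannot be told apart.

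Expression is given in cpm as deposited, the reads assigned to a gene scaled by all reads of its library. The 18 libraries each held 58627000 to 78150000 reads, with 65426000, 58627000 and 70453000 in PWK/PhJ replicates 1, 2 and 3. A gene with 3 reads would have 0.0384 to 0.0512 cpm in these libraries, which serves as the limit for detection and covers counting error only, and a gene without reads is listed at 0.0001 cpm. Of 28802 genes in the table, 15865 had a mean of at least 0.5 cpm over the 18 libraries and lay outside chromosomes X and Y, and these were tested. Because this mean includes PWK/PhJ, a gene under 0.5 cpm in the classical libraries could enter through its PWK/PhJ level alone. Differences are log2(cpm + 1) in PWK/PhJ minus the mean of the 5 classical strains, with the standard error, a scale that understates the change of low genes. A gene is called higher or lower where limma gave a Benjamini-Hochberg adjusted p under 0.01 and all 3 PWK/PhJ libraries lay outside the range of all 15 classical libraries. P-values measure the spread among mice within strains.

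All libraries carried the defining markers of retina. Nrl, the transcription factor that specifies rods, was at 345, 328 and 349 cpm in the PWK/PhJ libraries and at 257 to 394 cpm (median 320.3) in the classical libraries, a difference of 0.09 ± 0.06 (limma adjusted p = 0.229), and the ranges overlapped. Grm6, the glutamate receptor of ON bipolar cells, was at 21.05, 20.1 and 23.5 cpm in PWK/PhJ and at 18.4 to 32.1 cpm (median 24.7) in the classical libraries, with a difference of -0.17 ± 0.07 (limma adjusted p = 0.0423), and Glul, the glutamine synthetase of Müller glia, at 555, 548 and 518 cpm against 523 to 769 cpm (median 647), with a difference of -0.27 ± 0.05 (limma adjusted p = 6.48e-05). The ranges overlapped for both. Sex-linked transcripts differed among the PWK/PhJ mice. Xist, the RNA that coats the inactive X chromosome of females, was at 0.214, 1081 and 0.341 cpm, and Ddx3y, a gene of the Y chromosome, at 34.8, 0.0172 and 30.9 cpm. Replicate 2 of PWK/PhJ thus stood apart from replicates 1 and 3, and Xist was also high in replicate 3 of 129S1/Svlmj (962 cpm) and of C57BL/6J (906 cpm), so in 2 of the 15 classical libraries. Nnt, a mitochondrial transhydrogenase whose exons are partly deleted in C57BL/6J, was at 5.70, 6.40 and 5.49 cpm in PWK/PhJ and at 4.82 cpm on average in C57BL/6J, where the other classical strains lay between 3.41 and 7.45 cpm, so the gene total did not set that strain apart.

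PWK/PhJ differed from the classical strains at 3584 genes, 22.6% of those tested, of which 1770 (11.2%) were higher and 1814 (11.4%) lower. The count depends on what is taken as the unit. With strain means in place of libraries, a fit in which PWK/PhJ is a single value and all spread comes from the classical strains, 168 were higher and 202 lower. A further 3058 genes passed the adjusted p but overlapped in range, so that 6642 genes (41.9%) passed on the p alone, or 3827 with the 15 classical libraries as 1 group. Most of the differences were small. Their median size was 0.44 on the log2 scale among the genes called and 0.16 among all genes tested, 59.7% of the genes called differed by less than 0.5, and 391 differed by at least 1 (173 higher and 218 lower). Across genes, which are not independent replicates, log2 values correlated at 0.996 to 0.997 among the 3 PWK/PhJ libraries, at 0.989 to 0.998 within classical strains and at 0.973 to 0.986 between classical strains. PWK/PhJ correlated with the classical libraries at 0.955 to 0.962, below every pair of classical libraries. It correlated with CAST/EiJ at 0.965 to 0.969 and with WSB/EiJ at 0.959 to 0.962. How CAST/EiJ and WSB/EiJ correlate with the classical libraries was not examined.

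Set against the same 15 classical libraries, CAST/EiJ had 1435 genes higher (9.05%) and 2219 lower, and WSB/EiJ had 503 higher (3.17%) and 1038 lower (6.54%). These comparisons share their control libraries with that of PWK/PhJ, so the strains were also compared directly. PWK/PhJ differed from CAST/EiJ at 5361 genes (33.8%) and from WSB/EiJ at 5666 genes (35.7%) by limma's adjusted p alone. At 1416 genes (8.93%) PWK/PhJ stood apart from all 7 other strains, meaning that the contrasts with the classical mean, with CAST/EiJ and with WSB/EiJ all passed in one direction and that no other library of the 21 reached the PWK/PhJ range. Of these, 828 (5.22%) were higher and 588 (3.71%) lower in PWK/PhJ. This split moved with the scaling of the libraries, to 723 higher and 733 lower with median-ratio scaling and to 695 and 727 with quantile normalization.

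The 8 protein-coding genes with the largest increases in PWK/PhJ included genes best known from germ cells, hair cells, glia and immune cells. Catspere1 (chromosome 1, 177808431 to 177962678), for an auxiliary subunit of the sperm calcium channel CatSper, was at 38.6, 38.4 and 35.01 cpm in PWK/PhJ and at 0.0001 to 7.40 cpm (median 0.0265) in the classical strains, a difference of 4.09 ± 0.06 (limma adjusted p = 3.63e-20). Within the classical strains it was near 0 in 129S1/Svlmj, C57BL/6J and NOD/ShiLtJ and averaged 7.05 cpm in A/J and 5.82 cpm in NZO/HlLtJ. Myo7a (chromosome 7, 98051060 to 98119524), the myosin mutated in Usher syndrome and active in hair cells and pigment epithelium, was at 34.5, 31.4 and 31.1 cpm against 0.251 to 16.3 cpm (median 0.551), a difference of 3.83 ± 0.07 (limma adjusted p = 1.91e-18). C57BL/6J alone among the other strains expressed Myo7a at a raised level, with a mean of 13.8 cpm, while 0.366 cpm was measured in CAST/EiJ and 0.472 cpm in WSB/EiJ. Hfm1 (chromosome 5, 106840192 to 106926321), a DNA helicase of meiotic crossing over, reached 35.8, 38.2 and 34.7 cpm where no classical library exceeded 2.90 cpm (lowest 1.58, median 2.27), a difference of 3.55 ± 0.07 (limma adjusted p = 2.2e-18). The other 7 strains were all far below PWK/PhJ at Hfm1, with 2.23 cpm in CAST/EiJ and 2.28 cpm in WSB/EiJ.

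**Figure D1:**
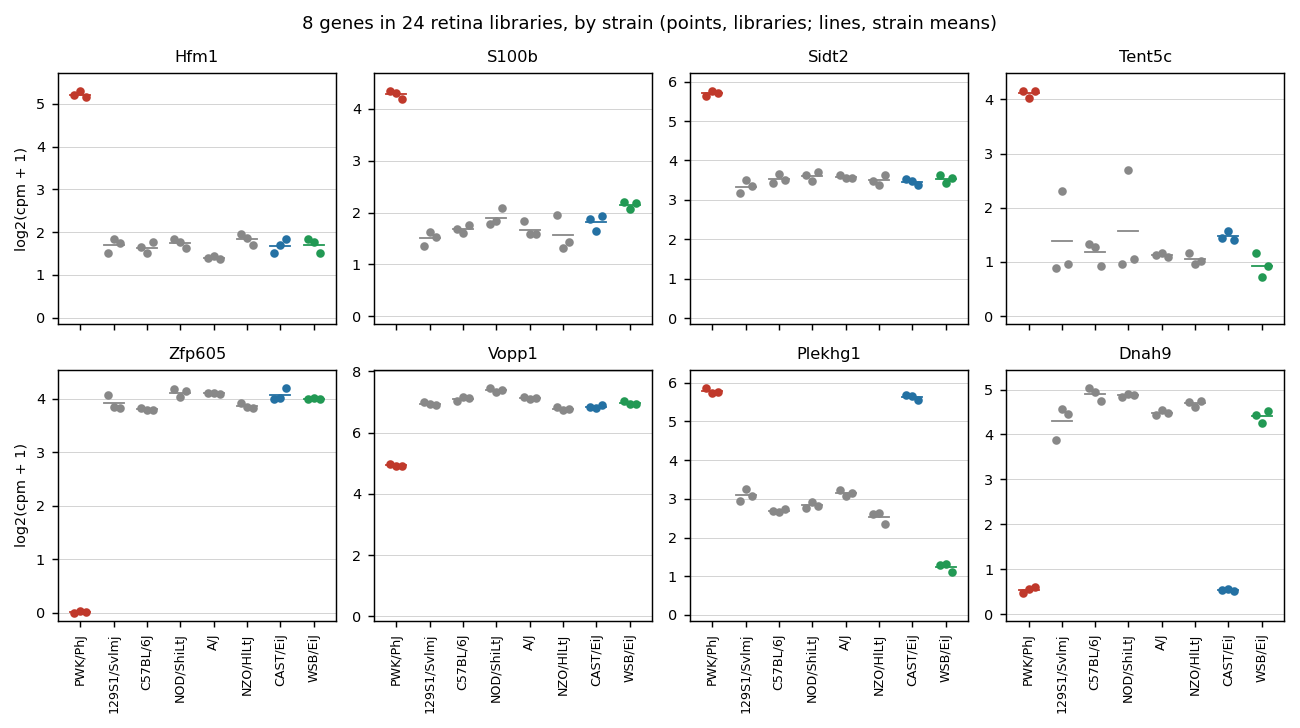
Expression of 8 genes as log2(cpm + 1) on the vertical axis, with 1 point for each of the 24 libraries, a line at each strain mean, and the strains along the horizontal axis. PWK/PhJ (red) lies above all other strains at Hfm1, S100b, Sidt2 and Tent5c and below them at Zfp605 and Vopp1, and shares its level with CAST/EiJ (blue) at Plekhg1 and Dnah9.

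Plekhg1 (chromosome 10, 3740364 to 3967303), an exchange factor that activates small GTPases, was at 57.1, 52.3 and 53.3 cpm in PWK/PhJ and at 4.11 to 8.60 cpm (median 6.08) in the classical libraries, a difference of 2.92 ± 0.06 (limma adjusted p = 1.46e-17). CAST/EiJ had a mean of 48.2 cpm, close to PWK/PhJ, and WSB/EiJ the lowest mean, 1.37 cpm. The langerin gene Cd207 (chromosome 6, 83671215 to 83677857), a lectin of Langerhans cells, was likewise high in PWK/PhJ and CAST/EiJ. It was at 4.998, 5.22 and 5.69 cpm in PWK/PhJ and at a mean of 5.71 cpm in CAST/EiJ, and at most 0.144 cpm in the classical libraries (median 0.0814), with a difference of 2.54 ± 0.04 (limma adjusted p = 3.74e-19). Tent5c (chromosome 3, 100451628 to 100489324), a cytoplasmic poly(A) polymerase, was at 16.8, 15.4 and 16.7 cpm against 0.845 to 5.47 cpm (median 1.14), a difference of 2.85 ± 0.27 (limma adjusted p = 5.83e-08). Its standard error was the largest of the 8, and replicate 2 of 129S1/Svlmj (3.96 cpm) and replicate 2 of NOD/ShiLtJ (5.47 cpm) were above the other classical libraries. Those 2 libraries also held the most RNA of the lens crystallin Cryaa (725 and 755 cpm), whose part in the Tent5c values was not tested.

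S100b (chromosome 10, 76253853 to 76261159), a calcium-binding protein of astrocytes and Müller glia, was at 19.2, 18.9 and 17.2 cpm in PWK/PhJ and at 1.48 to 3.28 cpm (median 2.10) in the classical strains, and rose by 2.61 ± 0.10 (limma adjusted p = 9e-14). Every other library of the series was below the PWK/PhJ range, CAST/EiJ averaging 2.55 cpm and WSB/EiJ 3.46 cpm. Zfp607a (chromosome 7, 27857527 to 27880825), a zinc finger protein, was at 21.2, 19.6 and 17.9 cpm against 0.204 to 4.74 cpm (median 4.04), a difference of 2.43 ± 0.06 (limma adjusted p = 3.08e-16). NZO/HlLtJ was the lowest strain for Zfp607a, with a mean of 0.207 cpm, and the other classical strains averaged 3.48 to 4.35 cpm. Sidt2 (chromosome 9, 45937857 to 45955258), a lysosomal membrane protein that takes up nucleic acids, was at 48.6, 52.9 and 51.7 cpm in PWK/PhJ and at 7.996 to 12.1 cpm (median 10.3) in the classical libraries, a difference of 2.19 ± 0.07 (limma adjusted p = 1.7e-15). The remaining strains had nearly the same level of Sidt2 (10.03 cpm in CAST/EiJ and 10.6 cpm in WSB/EiJ). The antisense gene A830035O19Rik covers 10.4% of its exon bases, and although the libraries were stranded, whether counting used the strand is not stated, so the part of antisense reads in the level is not known.

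Of the 8 protein-coding genes with the largest decreases, 3 share under 10% of their sequence words with other genes, Zfp605, Dnah9 and Igfn1. Zfp605 (chromosome 5, 110110092 to 110129794), a zinc finger protein, was at 0.0001, 0.0172 and 0.0143 cpm in PWK/PhJ, below the size of 3 reads in each library, and at 12.8 to 17.1 cpm (median 14.3) in the classical strains. The difference was -3.95 ± 0.05 (limma adjusted p = 2.73e-21), a fitted value that depends on the constant added to the cpm. CAST/EiJ (15.8 cpm) and WSB/EiJ (15.1 cpm) had the classical level. Of the 8 strains only PWK/PhJ was thus under the limit for detection at this gene, at the depth of these libraries. Reads of PWK/PhJ were aligned to the genome of a classical strain. Whether PWK/PhJ lacks the transcript or its reads were not assigned to the gene was not tested. Dnah9 (chromosome 11, 65831282 to 66168551), a dynein heavy chain that moves cilia, was at 0.382, 0.478 and 0.525 cpm against 13.7 to 31.8 cpm (median 25.5), a difference of -4.10 ± 0.09 (limma adjusted p = 2.71e-17). CAST/EiJ was as low, with a mean of 0.453 cpm, and WSB/EiJ (20.3 cpm) was at the classical level. The antisense gene Gm12296 covers 3.10% of the exon bases of Dnah9.

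Igfn1 (chromosome 1, 135953578 to 136006342), a muscle protein with immunoglobulin and fibronectin domains, was at 1.12, 0.904 and 1.12 cpm in PWK/PhJ and at 9.22 to 33.8 cpm (median 12.6) in the classical libraries, and fell by 2.91 ± 0.12 (limma adjusted p = 2.52e-13). Its highest strain was NOD/ShiLtJ, with a mean of 30.1 cpm, and no strain but PWK/PhJ averaged below 9.61 cpm. Vopp1 (chromosome 6, 57727807 to 57825159), a vesicular protein first found as overexpressed in cancer, was at 30.2, 29.3 and 29.2 cpm against 106 to 174 cpm (median 138), a difference of -2.14 ± 0.03 (limma adjusted p = 1.46e-19). With 114 cpm in CAST/EiJ and 124 cpm in WSB/EiJ, Vopp1 was lower in PWK/PhJ than in each of the 7 other strains. Gulo (chromosome 14, 65986786 to 66009207), the enzyme of the last step of vitamin C synthesis, was at 0.734, 0.427 and 0.554 cpm in PWK/PhJ and at 3.75 to 7.08 cpm (median 4.73) in the classical strains, a difference of -1.99 ± 0.06 (limma adjusted p = 4.17e-15). The highest strain was CAST/EiJ at 16.1 cpm, so the 2 strains called most often against the classical libraries lay at opposite ends for this gene.

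Several of the largest differences fell on genes with near-identical copies elsewhere in the genome, between which the counting model divides reads, and for these the gene alone is uncertain. Shared sequence was measured as the percentage of a gene's 31-base words that also occur in transcripts of other genes, and a copy is another gene that holds at least 20% of them. Of 6497 tested genes with under 1% of words shared, 21.4% were called and 1.88% differed by at least 1 on the log2 scale. Of 1296 genes with 50% or more shared, 24.0% were called and 10.2% differed by at least 1. Among 558 called genes with a copy, the sum of gene and copies also separated PWK/PhJ from all 15 classical libraries in the same direction for 261. For 136 of these 558 genes the difference was at least 1, and for 42 the sum still differed by at least 1.

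Gapdh (chromosome 6, 125161715 to 125166467), the glycolytic enzyme often used as a reference transcript, was at 13.2, 13.9 and 15.1 cpm in PWK/PhJ and at 76.2 to 101.2 cpm (median 87.3) in the classical libraries, a difference of -2.56 ± 0.06 (limma adjusted p = 4.64e-17). CAST/EiJ and WSB/EiJ were also below the classical range, at 18.5 and 12.2 cpm. A pair of processed pseudogenes of Gapdh moved in opposite directions. Gm7336, on chromosome 7, was at 0.0001, 0.0587 and 0.0333 cpm in PWK/PhJ and at 40.3 to 108 cpm (median 47.6) in the classical libraries. Gm3272, on chromosome 8, was at 125, 122 and 121 cpm in PWK/PhJ and at 0.0191 to 0.182 cpm (median 0.0843) in the classical libraries. For both pseudogenes the groups were far apart, and the level of Gm3272 in the 6 libraries of CAST/EiJ and WSB/EiJ, with means of 0.449 and 0.0817 cpm, was under 1 cpm. Gapdh and its 11 copies summed to 139, 136 and 136 cpm in PWK/PhJ and to 157 to 224 cpm (median 198) in the classical libraries. The sum was still below every classical library, with a difference of -0.54 in place of -2.56 on the log2 scale, and CAST/EiJ (115 cpm) and WSB/EiJ (84.2 cpm) had lower sums still.

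The sequence of the first 60-base stretch of Gapdh coding sequence in which one of these copies carries a different base was taken from the transcripts of GENCODE M21 (GRCm38). It lies at chr6:125163377-125163436 (minus strand, exon 3 of the transcript Gapdh-201), and the matching stretches lie at chr7:51746720-51746779 (plus strand) and chr8:92716846-92716905 (minus strand). Sequences run 5′ to 3′, and a capital marks a base that differs from Gapdh. Over these 60 bases Gm7336 had 0 mismatches and Gm3272 had 1.
Gapdh: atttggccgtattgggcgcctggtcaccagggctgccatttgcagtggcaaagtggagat
Gm7336: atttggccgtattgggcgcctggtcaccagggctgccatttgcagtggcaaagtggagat
Gm3272: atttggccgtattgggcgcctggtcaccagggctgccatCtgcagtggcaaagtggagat

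**Figure D2:**
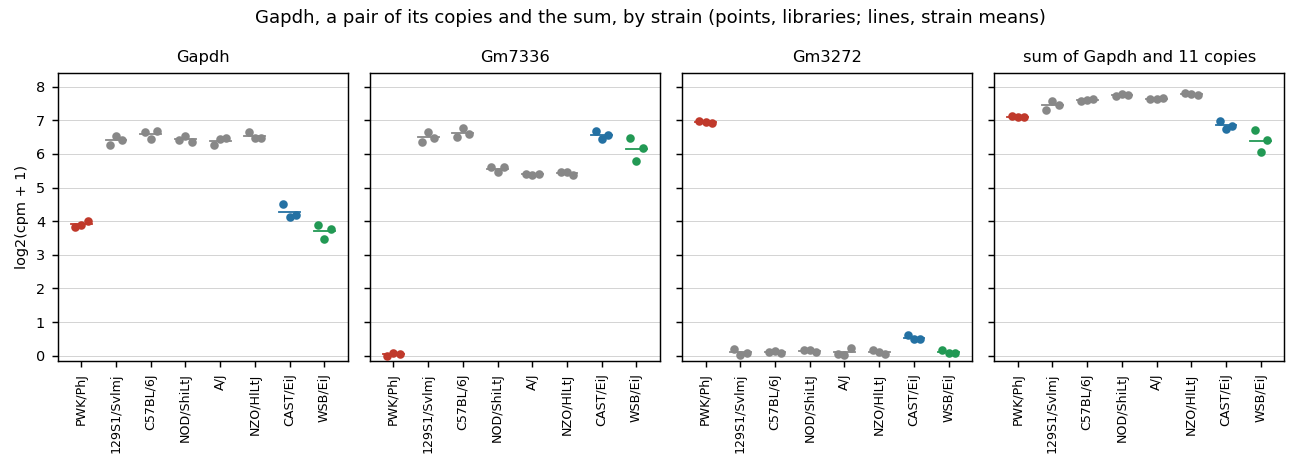
Levels of Gapdh, the pseudogenes Gm7336 and Gm3272 and the sum of Gapdh with its 11 copies, as log2(cpm + 1) on the vertical axis, with 1 point per library, a line at each strain mean and the strains along the horizontal axis. PWK/PhJ (red) is the only strain with Gm3272 above 1 cpm and the only strain with Gm7336 below 1 cpm, and its sum (136 to 139 cpm) lies below the classical sums (157 to 224 cpm).

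Ftl1, the light chain of the iron store ferritin, was at 0.220, 0.197 and 0.536 cpm in PWK/PhJ and at 27.02 to 43.5 cpm (median 31.8) in the classical libraries, a difference of -4.68 ± 0.08 (limma adjusted p = 1.71e-19). Its copies were called higher in PWK/PhJ, and Ftl2-ps was tested only because of its PWK/PhJ level. Ftl1-ps1 was at 24.3, 22.6 and 22.9 cpm against 7.79 to 14.5 cpm (median 9.29), and Ftl2-ps at 7.23, 6.79 and 6.76 cpm against at most 0.0843 cpm. Summed with all copies, the difference was -0.45, still below all classical libraries, and 26.5% of the exon bases of Ftl1 lie opposite Gm10252. Eno1, the enolase of glycolysis, was at 12.9, 13.5 and 15.3 cpm against 63.3 to 157 cpm (median 81.5), a difference of -2.59 ± 0.07 (limma adjusted p = 1.67e-16), with C57BL/6J the highest strain (147 cpm) and CAST/EiJ as low as PWK/PhJ (13.5 cpm). With its copies, of which Eno1b held most of the reads (383, 329 and 316 cpm against 192 to 437 cpm, median 293), the difference was -0.11 and the ranges overlapped. Rpl14, of the large ribosomal subunit, was at 1.26, 1.15 and 0.9496 cpm against 11.2 to 16.4 cpm (median 13.3), a difference of -2.75 ± 0.08 (limma adjusted p = 2.5e-15), and the sum with its copy Rpl14-ps1 overlapped (-0.37). For Zfp971, a zinc finger gene with 69.5% of its words shared, 1.79, 1.23 and 1.98 cpm in PWK/PhJ stood against 14.1 to 17.9 cpm (median 16.4), a difference of -2.68 ± 0.07 (limma adjusted p = 1.39e-16), while the sum with its copies differed by 0.15 and overlapped.

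In other families the sum also stayed apart from the classical libraries, with a smaller difference than the gene alone. Srp54c, a GTPase subunit of the signal recognition particle, was at 0.699, 0.659 and 0.534 cpm in PWK/PhJ and at 26.5 to 38.9 cpm (median 32.9) in the classical strains, a difference of -4.35 ± 0.06 (limma adjusted p = 3.63e-20), and was listed at 0.0001 cpm in all 3 CAST/EiJ libraries. Its copies were below the classical range too, Srp54b at 14.7, 14.1 and 13.8 cpm against 21.7 to 57.8 cpm (median 26.3) and Srp54a at 8.13, 9.73 and 6.95 cpm against 13.9 to 36.1 cpm (median 17.1). The sum over the family was 23.5, 24.5 and 21.3 cpm against 64.2 to 129.0 cpm (median 76.9), a difference of -1.78. Catspere1 and its single copy Catspere2, which alone was at 37.2, 40.5 and 37.6 cpm in PWK/PhJ and at 7.21 to 20.1 cpm (median 9.38) in the classical libraries, together differed by 2.44. PWK/PhJ was above all other strains in this sum, and CAST/EiJ was the lowest of the wild-derived strains with 5.20 cpm.

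The most abundant non-coding gene called higher resembles a mitochondrial gene. Gm13340, a chromosome 2 pseudogene copy of the cytochrome oxidase gene mt-Co1 (chromosome 2, 22588103 to 22589647), was at 1345, 1269.6 and 1094 cpm in PWK/PhJ and at 0.509 to 150.2 cpm (median 0.795) in the classical strains, a difference of 8.23 ± 0.07 (limma adjusted p = 7.32e-24). Among those only NZO/HlLtJ was above 1 cpm, with a mean of 133 cpm, and CAST/EiJ was higher still than PWK/PhJ at 1786 cpm. The mt-Co1 gene itself was at 1172, 1182 and 1070.3 cpm against 2536 to 3778 cpm (median 3104), a difference of -1.47 ± 0.07 (limma adjusted p = 4.08e-12), and the sum of mt-Co1 and its copies overlapped between the groups, while that of Gm13340 and its copies lay below the classical range (-0.42). Of 15 mitochondrially encoded genes tested, 0 were higher and 4 lower (mt-Co1, mt-Atp8, mt-Atp6 and mt-Co2; 5 lower after quantile normalization), with a list median of -0.28 beside 0.012 for all genes. The list summed to 4149, 3832 and 3568 cpm in PWK/PhJ and to 5265 to 8008 cpm (median 6174) in the classical libraries, without overlap. Without mt-Co1, a sum added after seeing the data, it came to 2977, 2649 and 2498 cpm against 2729 to 4230 cpm (median 3174), and the ranges overlapped. mt-Atp6, a subunit of ATP synthase, was at 206, 184 and 173 cpm against 254 to 460.1 cpm (median 307), with a difference of -0.77 ± 0.13 (limma adjusted p = 6.74e-05), and its sum with copies was also below the classical range (-0.64), while for mt-Co2 and its fully shared copy Gm28661 (483, 443 and 399.9 cpm against 493 to 743 cpm, median 627) the sum overlapped.

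Photoreceptor genes differed at a few members. Gene lists are described by the members called, beside 11.2% higher and 11.4% lower among all genes tested, and by the median difference, beside 0.012 for all genes. Whether a list was called more or less often than other genes was not tested, and with strain means as the unit 22 of the 33 lists had 0 members called, against 4 with libraries as the unit. With the classical libraries as 1 group, 19 of the 33 lists had fewer members called. In rods, 2 of 26 phototransduction genes were higher and 1 lower, or 3 and 2 after quantile normalization (median 0.049). Grk1, the photoreceptor kinase that ends the light response, was at 1031, 1035 and 989 cpm in PWK/PhJ and at 625 to 851 cpm (median 718) in the classical libraries, with a difference of 0.49 ± 0.04 (limma adjusted p = 7.56e-09), and Guca1a, a calcium sensor of guanylate cyclase, at 140.5, 128.7 and 124 cpm against 84.4 to 109 cpm (median 94.2), with a difference of 0.46 ± 0.04 (limma adjusted p = 1.25e-08). Both were also high in CAST/EiJ (1163 and 167 cpm). The lower gene was Rdh12, a retinol dehydrogenase of inner segments, at 78.4, 71.2 and 70.5 cpm against 80.0 to 99.5 cpm (median 91.0), with a difference of -0.30 ± 0.04 (limma adjusted p = 3.88e-06). In total, the rod list summed to 19774, 19012 and 18273 cpm in PWK/PhJ, within the classical 15991 to 19871 cpm (median 18307), and the list's median kept its sign under both other scalings but came to 0.002 after quantile normalization.

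In cones, 3 of 12 genes were higher and 0 lower, with a median of 0.23 (0.23 with median-ratio scaling, 0.20 with 1 gene lower after quantile normalization). Pde6c, the phosphodiesterase of cones, was at 43.6, 41.3 and 38.5 cpm in PWK/PhJ and at 9.95 to 35.9 cpm (median 13.8) in the classical strains, a difference of 1.34 ± 0.05 (limma adjusted p = 2.37e-14). C57BL/6J came closest, with a mean of 34.7 cpm against 10.5 to 14.6 cpm in the other classical strains, and CAST/EiJ and WSB/EiJ lay between at 25.3 and 28.2 cpm. Cngb3, the beta subunit of the cone channel opened by cyclic GMP, was at 27.5, 26.7 and 26.5 cpm against 9.70 to 12.9 cpm (median 11.1), a difference of 1.17 ± 0.04 (limma adjusted p = 4.88e-15). Gnb3, the transducin beta subunit of cones and ON bipolar cells, was at 83.1, 85.9 and 86.9 cpm against 52.7 to 75.6 cpm (median 65.7), a difference of 0.36 ± 0.07 (limma adjusted p = 0.000167). All 3 genes were higher in PWK/PhJ than in each of the 7 other strains. The cone pigment Opn1sw (120.0, 126 and 126 cpm against 90.6 to 129.1 cpm, median 107) and the cone transducin Gnat2 (39.1, 38.5 and 36.1 cpm against 29.03 to 44.3 cpm, median 35.9) overlapped with the classical range. Cone arrestin, Arr3, which lies on chromosome X and was not tested, was at 65.1, 61.7 and 60.6 cpm against 22.8 to 62.9 cpm (median 36.1), with overlap.

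Among 13 photoreceptor transcription factors 1 was higher and 0 lower, with a median of 0.090. This was Prdm1, which favours photoreceptor over bipolar fate, at 11.3, 11.8 and 12.3 cpm in PWK/PhJ and at 5.61 to 7.49 cpm (median 6.40) in the classical libraries, with a difference of 0.78 ± 0.06 (limma adjusted p = 1.38e-09), with a mean of 12.8 cpm in CAST/EiJ. Of 20 genes of the photoreceptor ribbon synapse, 4 were higher and 1 lower, 0 lower with median-ratio scaling and 2 lower with quantile normalization (median 0.11). Slc17a7, the transporter that fills synaptic vesicles with glutamate, was at 296, 318 and 365 cpm against 183 to 269 cpm (median 223), with a difference of 0.58 ± 0.09 (limma adjusted p = 2.22e-05), and Cplx4, a complexin of ribbon synapses, at 198, 191 and 176 cpm against 120.2 to 148 cpm (median 131), with a difference of 0.51 ± 0.04 (limma adjusted p = 2.07e-09). The groups were separate at both genes, and Cplx4 was higher in PWK/PhJ than in all 7 strains. The active zone scaffold Pclo (0.46) and the calcium channel regulator Cabp4 (0.33) were the other higher members. The ribbon list summed to 3280.0, 3260.1 and 3259.8 cpm in PWK/PhJ and to 2786 to 3255 cpm (median 3049) in the classical libraries, so just above their range.

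Of 20 bipolar cell genes 4 were higher and 6 lower, the same counts under both other scalings, but 2 and 4 with the classical libraries as 1 group and 0 with strain means. Cabp5, a calcium-binding protein of rod and some cone bipolar cells, was at 69.8, 72.2 and 62.5 cpm in PWK/PhJ and at 22.7 to 49.4 cpm (median 39.6) in the classical strains, a difference of 0.93 ± 0.05 (limma adjusted p = 1.18e-11). Prkca, the protein kinase C of rod bipolar cells, was at 166, 179.1 and 174 cpm against 56.0 to 149 cpm (median 120.0), a difference of 0.78 ± 0.04 (limma adjusted p = 1.44e-12). Classical strains varied at Prkca, from a mean of 57.3 cpm in A/J to 145 cpm in NZO/HlLtJ, and WSB/EiJ was above PWK/PhJ at 189 cpm. In the other direction, Trpm1, the channel that closes when ON bipolar cells receive glutamate, was at 136, 126 and 126 cpm against 169 to 223 cpm (median 206), a difference of -0.62 ± 0.04 (limma adjusted p = 4.82e-11). Car8, related to carbonic anhydrases, was at 14.4, 15.4 and 13.9 cpm against 22.9 to 35.1 cpm (median 27.6), with a difference of -0.92 ± 0.04 (limma adjusted p = 2.63e-12). Vsx1, a homeobox factor of cone bipolar cells, was at 5.55, 5.41 and 5.58 cpm against 7.92 to 11.8 cpm (median 9.50), with a difference of -0.73 ± 0.07 (limma adjusted p = 3.1e-08). Car8 was lower in PWK/PhJ than in each other strain. The list median was -0.19, but the summed level of the list, 797, 796 and 798 cpm, lay inside the classical range of 729 to 888 cpm (median 811).

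Of 20 amacrine cell genes 4 were higher and 0 lower in PWK/PhJ (5 higher after quantile normalization), with a median of 0.057. A pair of them define cholinergic neurons: Slc5a7, the choline transporter, was at 9.06, 9.57 and 9.86 cpm in PWK/PhJ and at 3.03 to 7.22 cpm (median 4.78) in the classical libraries, with a difference of 0.85 ± 0.06 (limma adjusted p = 7.02e-10), and Slc18a3, which loads acetylcholine into vesicles, at 1.83, 1.96 and 2.88 cpm against 0.543 to 1.23 cpm (median 0.931), with a difference of 0.77 ± 0.09 (limma adjusted p = 1.15e-06). Both ranges were separate. Calb2, the calcium buffer calretinin, was at 58.6, 59.4 and 56.9 cpm against 36.2 to 56.4 cpm (median 44.6), with a difference of 0.38 ± 0.05 (limma adjusted p = 8.25e-06), close to the highest classical library. Th, the first enzyme of dopamine synthesis, was at 1.25, 1.25 and 1.26 cpm against 0.512 to 1.06 cpm (median 0.721), with a difference of 0.36 ± 0.05 (limma adjusted p = 1.86e-05), and it stood apart from all 7 strains. The markers Gad1 (0.07 ± 0.04, limma adjusted p = 0.111), Slc6a9 (-0.04 ± 0.07, limma adjusted p = 0.682) and Tfap2b (-0.103 ± 0.058, limma adjusted p = 0.148) overlapped, and the list summed to 507, 492 and 499 cpm, inside the classical range of 451 to 521 cpm (median 481). In the list of dopamine and neuropeptide genes 4 of 14 were higher and 1 lower, with a median of 0.019. Sst, the peptide somatostatin, was at 1.13, 1.04 and 1.02 cpm against 0.329 to 0.842 cpm (median 0.410), with a difference of 0.47 ± 0.05 (limma adjusted p = 7.48e-08), and Cck, cholecystokinin, at 0.367, 0.341 and 0.284 cpm against 1.57 to 2.70 cpm (median 1.77), with a difference of -1.13 ± 0.06 (limma adjusted p = 1.27e-11), lower still in CAST/EiJ at 0.122 cpm. Drd4, the dopamine receptor of photoreceptors, was at 35.2, 36.9 and 40.7 cpm against 19.9 to 34.5 cpm (median 29.7), with a difference of 0.39 ± 0.09 (limma adjusted p = 0.00177), a call lost without PWK/PhJ replicate 3 (0.33, adjusted p = 0.0218).

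Ganglion and horizontal cells were followed with short lists. Of 17 ganglion cell genes 1 was higher (0 after quantile normalization) and 1 lower, with a median of 0.019. Jam2, an adhesion molecule of direction-selective ganglion cells, was at 27.3, 26.8 and 27.5 cpm in PWK/PhJ and at 34.2 to 62.5 cpm (median 52.3) in the classical strains, a difference of -0.84 ± 0.03 (limma adjusted p = 3.4e-14). The lowest classical strain was NZO/HlLtJ, with a mean of 34.9 cpm. Nefm, a neurofilament subunit, was at 37.3, 28.01 and 28.3 cpm against 13.4 to 27.8 cpm (median 21.9), with a difference of 0.53 ± 0.12 (limma adjusted p = 0.000957), but shares 19.2% of its exon bases with the antisense gene Nefl and was no longer called after quantile normalization or without PWK/PhJ replicate 1 (0.40, adjusted p = 0.0211). The ganglion cell markers Rbpms, at 5.44, 5.66 and 6.15 cpm against 4.65 to 6.85 cpm (median 5.77), with a difference of 0.013 ± 0.067 (limma adjusted p = 0.887), Nefl (0.03 ± 0.04, limma adjusted p = 0.587) and Thy1, at 28.9, 25.3 and 21.8 cpm against 24.8 to 36.0 cpm (median 31.4), with a difference of -0.28 ± 0.06 (limma adjusted p = 0.00084), overlapped, although Thy1 passed the adjusted p. Of 4 horizontal cell genes tested, with a median of 0.012, 0 were called, and by limma 2 passed the adjusted p and 2 had an unadjusted p under 0.05.

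Most members of the receptor and channel lists were not called. Shares called were 17.5% higher and 12.5% lower for receptor subunits and 7.81% and 14.1% for potassium channel symbols. Among all genes tested they were 11.2% and 11.4%. With strain means as the unit both lists had 0 members called. Of 40 subunits of glutamate, GABA and glycine receptors 7 were higher and 5 lower (7 and 4, and 6 and 5, with the other scalings), with a median of -0.047. A pair of GABA-A receptor subunit genes in 1 cluster on chromosome 5 were both higher, Gabra2 at 27.2, 25.9 and 26.1 cpm in PWK/PhJ and 7.30 to 16.9 cpm (median 11.8) in the classical libraries, with a difference of 1.09 ± 0.06 (limma adjusted p = 1.8e-11), and Gabra4 at 9.08, 8.22 and 7.76 cpm against 2.34 to 4.18 cpm (median 3.47), with a difference of 1.11 ± 0.07 (limma adjusted p = 2.05e-10). Each stood apart from all 7 strains. Grik3, a kainate receptor subunit, was at 8.97, 9.82 and 10.7 cpm against 2.27 to 7.38 cpm (median 3.53), with a difference of 1.09 ± 0.08 (limma adjusted p = 1.76e-09), and Grin2d, an NMDA receptor subunit, at 1.54, 1.62 and 1.66 cpm against 0.484 to 0.806 cpm (median 0.671), with a difference of 0.66 ± 0.06 (limma adjusted p = 1.25e-08). Of 64 genes with symbols of potassium channel subunits 5 were higher and 9 lower (7 and 8, and 7 and 9, with the other scalings), and 1 of the 9 was Kcnq1ot1, an antisense RNA and not a channel. Their median of -0.028 turned to 0.005 after quantile normalization. Kcnab1, a cytoplasmic subunit, was at 25.1, 26.8 and 24.8 cpm against 13.2 to 21.2 cpm (median 15.5), with a difference of 0.64 ± 0.04 (limma adjusted p = 1.69e-10), whereas its relative Kcnab2 was at 31.1, 29.8 and 34.5 cpm against 37.2 to 63.1 cpm (median 52.9), with a difference of -0.67 ± 0.07 (limma adjusted p = 4.65e-07). Kcne2, a regulatory subunit, was at 7.46, 7.22 and 6.08 cpm against 9.98 to 15.2 cpm (median 13.2), with a difference of -0.82 ± 0.05 (limma adjusted p = 2.09e-10). Of 22 genes of synaptic vesicles and transmission 3 were higher and 1 lower (2 lower with either other scaling), with a median of 0.065, led by Cplx2, a complexin of conventional synapses, at 62.1, 50.4 and 55.8 cpm against 25.1 to 44.8 cpm (median 38.5), with a difference of 0.61 ± 0.09 (limma adjusted p = 2.55e-05). Dlg4 and Stx1a were the other higher members. Stx1a lost its call with median-ratio scaling, and Dlg4 with quantile normalization or without PWK/PhJ replicate 3.

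**Figure D3:**
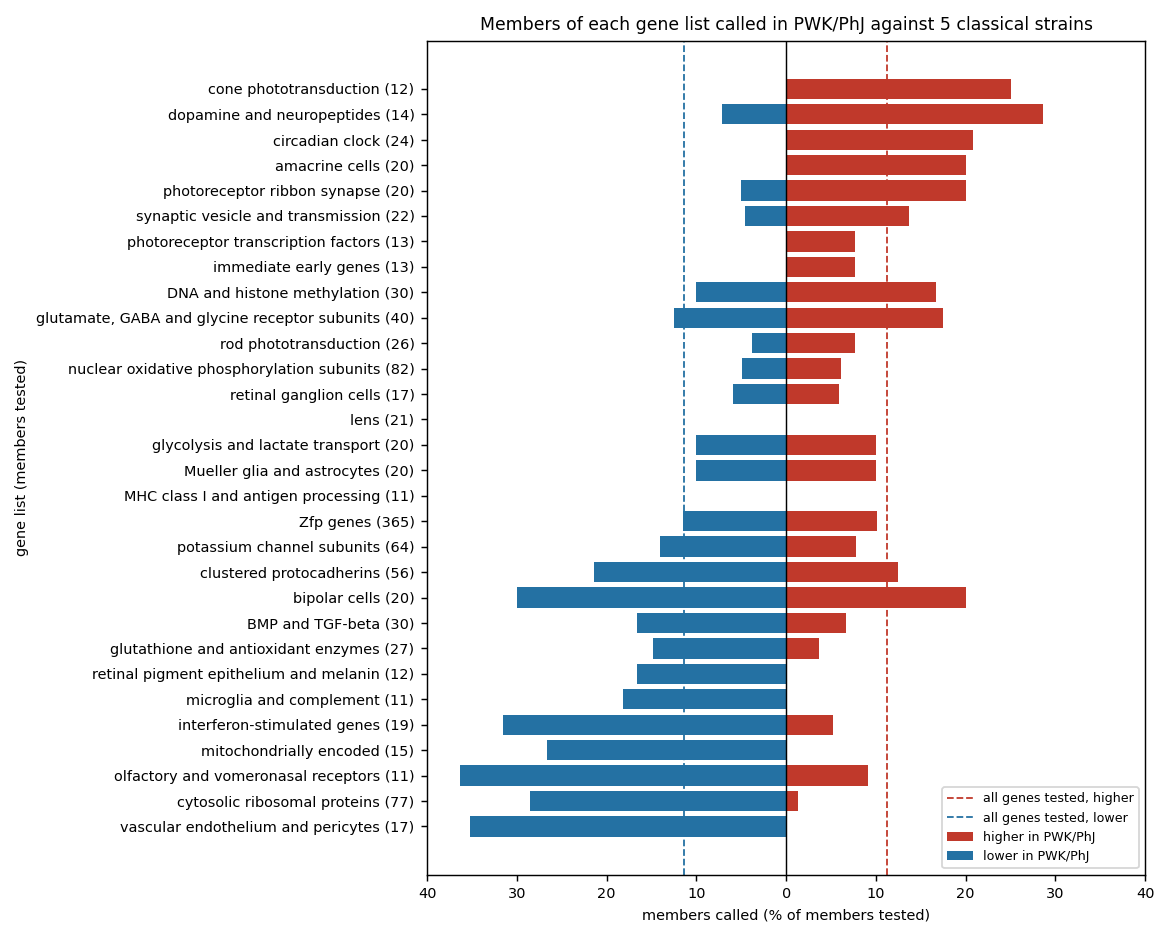
Percentage of tested members of each gene list with at least 10 members tested that were called higher (red, to the right) or lower (blue, to the left) in PWK/PhJ, with the number of members tested in brackets on the vertical axis. Dashed lines mark the 11.2% and 11.4% of all genes tested that were called higher and lower. All members called were higher for cone, amacrine, clock, photoreceptor transcription factor and immediate early genes. Among photoreceptor transcription factors and among immediate early genes only 1 of 13 members was called (7.69%). All members called were lower for vascular, mitochondrially encoded, pigment epithelium and microglial genes. With median-ratio scaling vascular genes had 1 higher and 5 lower, and with quantile normalization cone genes had 3 higher and 1 lower.

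Glial genes were called in both directions. Of 20 genes of Müller glia and astrocytes 2 were higher and 2 lower, with a median of -0.048. Both shares lay near those of all genes tested, which were 11.2% higher and 11.4% lower. Besides S100b, the secreted Wnt modulator Dkk3 was higher, at 234, 245 and 229 cpm in PWK/PhJ and at 157 to 219.8 cpm (median 189) in the classical libraries, with a difference of 0.34 ± 0.06 (limma adjusted p = 0.000222). Clu, the extracellular chaperone clusterin, was lower, at 64.1, 70.3 and 59.3 cpm against 81.5 to 138 cpm (median 106), with a difference of -0.69 ± 0.10 (limma adjusted p = 8.42e-06), with a similar mean of 61.8 cpm in CAST/EiJ. Hes1, a Notch effector, was at 2.67, 2.80 and 2.65 cpm against 2.92 to 4.80 cpm (median 3.82), with a difference of -0.36 ± 0.09 (limma adjusted p = 0.00257), a call lost when any 1 of the 3 PWK/PhJ libraries was left out. The values without replicates 1, 2 and 3 were -0.36, adjusted p = 0.0152, then -0.38, adjusted p = 0.0102, and -0.35, adjusted p = 0.0156. Of 11 microglial and complement genes 0 were higher and 2 (18.2%) lower (3 and 1 lower with the other scalings), with a median of -0.11. C1qc, a chain of the complement starter C1q, was at 0.306, 0.290 and 0.114 cpm against 0.417 to 1.07 cpm (median 0.686), with a difference of -0.46 ± 0.06 (limma adjusted p = 1.8e-06), while its partner C1qa overlapped (0.688, 0.751 and 0.852 cpm against 0.455 to 1.20 cpm, median 0.952). The list summed to 21.1, 21.7 and 19.96 cpm, inside the classical range of 15.4 to 30.3 cpm (median 20.7). Of 11 genes for MHC class I and antigen processing 0 were called, with a median of -0.035. By limma 4 passed the adjusted p and 6 had an unadjusted p under 0.05, where 6642 and 9245 of the 15865 genes tested did.

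Interferon-stimulated genes were called lower in 6 of 19 members (31.6%) and higher in 1 (5.26%), with a median of -0.15. Among all genes tested 11.4% were lower and 11.2% higher, and whether the list differed from these shares was not tested. The list's counts were the same under both other scalings. With the classical libraries as 1 group 5 were lower and 1 higher. Strain means as the unit left 1 lower and 0 higher. Gbp7, a guanylate-binding protein, was at 0.275, 0.555 and 0.369 cpm in PWK/PhJ and at 2.42 to 3.18 cpm (median 2.88) in the classical strains, a difference of -1.47 ± 0.07 (limma adjusted p = 2.65e-12), with 11.4% of its exon bases shared with Gm43802. CAST/EiJ was equally low (0.431 cpm) and WSB/EiJ was not (1.98 cpm). Ifit3, which binds foreign RNA, was at 0.416, 0.446 and 0.399 cpm against 0.614 to 3.36 cpm (median 2.22), with a difference of -0.98 ± 0.09 (limma adjusted p = 2.57e-08). Within the classical strains it averaged 0.695 and 0.814 cpm in A/J and NZO/HlLtJ and 2.64 to 3.17 cpm in the other 3, and with its copies the difference was -0.78 and the groups stayed separate. Irgm1, an immunity GTPase, was at 0.0918, 0.256 and 0.199 cpm against 0.512 to 1.31 cpm (median 0.839), with a difference of -0.65 ± 0.07 (limma adjusted p = 2.03e-07), and Ifi27 at 0.245, 0.188 and 0.156 cpm against 0.439 to 1.05 cpm (median 0.649), with a difference of -0.49 ± 0.05 (limma adjusted p = 4.43e-07). In sum the list reached 52.7, 55.2 and 51.0 cpm in PWK/PhJ, within 49.0 to 66.6 cpm (median 56.1).

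Tissues next to the retina were followed with their own lists. Of 17 vascular and pericyte genes 0 were higher and 6 (35.3%) lower, beside 11.2% and 11.4% of all genes tested, with a median of -0.081. With median-ratio scaling 1 was higher and 5 lower, and with quantile normalization 0 and 4. Pecam1, the adhesion molecule that marks endothelium, was at 1.94, 2.12 and 1.96 cpm in PWK/PhJ and at 2.74 to 4.70 cpm (median 3.61) in the classical libraries, with a difference of -0.59 ± 0.07 (limma adjusted p = 6.45e-07), and Flt1, a receptor of vascular endothelial growth factor, at 17.99, 18.1 and 19.6 cpm against 20.9 to 29.6 cpm (median 24.97), with a difference of -0.42 ± 0.05 (limma adjusted p = 1.86e-06). The tight junction gene Cldn5 (1.79, 2.18 and 2.19 cpm against 2.23 to 3.93 cpm, median 2.61, difference -0.27 ± 0.07, limma adjusted p = 0.00198) was no longer called under either other scaling or without PWK/PhJ replicate 1 (-0.21, adjusted p = 0.0332). The summed level, 185, 189 and 185 cpm, lay within 160.1 to 195 cpm (median 183), and its most abundant gene, the receptor Kdr, pointed the other way, averaging 82.6 cpm in PWK/PhJ and 69.1 cpm in the classical libraries (0.26, limma adjusted p = 9.46e-06, ranges overlapping).

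Of 12 genes of pigment epithelium and melanin 0 were higher and 2 lower (3 and 1 lower with the other scalings), with a median of -0.68. Pmel, the fibril protein of melanosomes, was at 0.932, 0.921 and 0.752 cpm in PWK/PhJ and at 1.35 to 12.1 cpm (median 3.36) in the classical strains, with a difference of -1.25 ± 0.28 (limma adjusted p = 0.000859), and Tyr, the tyrosinase of melanin synthesis, at 0.199, 0.392 and 0.270 cpm against 0.408 to 1.88 cpm (median 1.23), with a difference of -0.71 ± 0.13 (limma adjusted p = 0.000122), the latter not called after quantile normalization. Rpe65, the isomerase that defines this epithelium, overlapped at 1.30, 1.83 and 0.894 cpm against 1.30 to 7.74 cpm (median 2.41), and so did the retinol esterifying enzyme Lrat (0.932, 1.21 and 0.625 cpm against 1.20 to 6.87 cpm, median 2.46). The whole list summed to 26.5, 35.2 and 21.7 cpm in PWK/PhJ, with replicate 3 below and the others inside the classical 22.5 to 101.2 cpm (median 55.5), with Rgr the most abundant gene and 0 of its members listed at the smallest value in PWK/PhJ. Its part in the lower genes was not tested. Lens genes were present in all libraries, with 0 of 21 called, a median of 0.067, 0 passing limma's adjusted p and 0 with an unadjusted p under 0.05, and 26.7, 17.8 and 36.0 cpm of the crystallin Cryaa in PWK/PhJ against 1.81 to 755 cpm (median 7.07). The lens list summed to 97.1, 62.2 and 113 cpm in PWK/PhJ, between the classical median of 23.97 cpm and the highest library at 2444 cpm, and its part in other differences was not tested. Of 4 blood genes, with a median of -0.60, 0 were called, 2 passed limma's adjusted p and 3 had an unadjusted p under 0.05, and the list, led by the globin Hbb-bs, summed to 21.8, 7.45 and 14.8 cpm against 7.46 to 30.8 cpm (median 21.5).

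Most members of the lists for energy metabolism and antioxidant enzymes were not called. Among all genes tested 11.2% were higher and 11.4% lower, and whether a list differed from these shares was not tested. With the cpm as deposited, the shares called of the glycolysis and oxidative phosphorylation lists lay below those of all genes in each direction. Of 20 genes of glycolysis and lactate transport 2 were higher and, with the copy-rich Gapdh and Eno1, 2 lower (3 and 4 lower with the other scalings), with a median of 0.024. Hk2, the hexokinase of photoreceptors, was at 184, 178 and 182 cpm in PWK/PhJ and at 45.2 to 126 cpm (median 101.1) in the classical strains, a difference of 1.05 ± 0.05 (limma adjusted p = 5.1e-12). The classical strains ranged from a mean of 47.6 cpm in A/J to 122 cpm in NZO/HlLtJ, and CAST/EiJ was near PWK/PhJ at 173 cpm. Eno2, the neuronal enolase, was at 172, 172 and 167 cpm against 113 to 165 cpm (median 143), with a difference of 0.29 ± 0.05 (limma adjusted p = 3.53e-05). Of 82 nuclear genes of oxidative phosphorylation, 4 of them pseudogenes, 5 were higher and 4 lower, with a median of 0.003 that turned to -0.003 with median-ratio scaling (6 higher, 9 lower) and to -0.024 with quantile normalization (5 higher, 10 lower). Ndufa8, a subunit of complex I, was the most raised member, at 10.6, 9.86 and 8.49 cpm against 6.05 to 7.72 cpm (median 6.65), with a difference of 0.46 ± 0.06 (limma adjusted p = 6.42e-06). Among 27 glutathione and antioxidant enzymes 1 was higher and 4 lower (2 and 4, and 2 and 3, with the other scalings), with a median that changed sign from -0.018 to 0.017 after quantile normalization. The glutathione transferases Gstt2 (0.657, 0.768 and 0.809 cpm against 1.45 to 3.24 cpm, median 2.15, difference -0.86 ± 0.08, limma adjusted p = 4.99e-08) and Gstt1 (1.498, 1.52 and 1.35 cpm against 1.93 to 3.29 cpm, median 2.32, difference -0.49 ± 0.08, limma adjusted p = 2.79e-05) were lower, and the peroxidase Gpx1 (6.45, 6.35 and 5.45 cpm against 3.75 to 5.41 cpm, median 4.47, difference 0.35 ± 0.07, limma adjusted p = 0.000582) was higher.

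Genes for cytosolic ribosomal proteins were called lower in 22 of 77 members (28.6%), which include 6 pseudogenes, and higher in 1 (1.30%). Among all genes tested 11.4% were lower and 11.2% higher. The list's median was -0.17, and under either other scaling 23 members were lower and 1 higher. With strain means as the unit 9 were lower and 1 higher. Of the pseudogenes, Rpl6l and Rps12l1 were among the lower members. The list summed to 826, 767 and 740.0 cpm in PWK/PhJ and to 856 to 1154 cpm (median 995) in the classical libraries, without overlap, and CAST/EiJ and WSB/EiJ averaged 829 and 860.4 cpm. Rps26, of the small subunit, was at 1.23, 0.915 and 1.28 cpm against 6.34 to 9.38 cpm (median 7.52), with a difference of -1.996 ± 0.071 (limma adjusted p = 2.97e-14), Rpl37a at 1.71, 1.81 and 1.43 cpm against 4.64 to 7.76 cpm (median 6.08), with a difference of -1.41 ± 0.07 (limma adjusted p = 8.4e-12) and Rpl6l at 5.36, 6.14 and 5.71 cpm against 15.5 to 20.01 cpm (median 18.7), with a difference of -1.51 ± 0.07 (limma adjusted p = 5.86e-13). Many of these genes have pseudogenes. For Rpl6l, with 84.4% of its words shared, the sum with copies differed by -0.43 and still lay below the classical range, whereas for Rpl14 it did not. Levels of ribosomal protein genes are therefore uncertain one by one. The list was summed without adding the copies of its genes, so the sum and the count of lower members carry the same uncertainty.

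Of 24 circadian clock genes 5 (20.8%) were higher and 0 lower in PWK/PhJ, beside 11.2% and 11.4% of all genes tested, with a median of 0.081. Under either other scaling 3 were higher and 0 lower. Per3, a repressor of the clock loop, was at 73.9, 70.02 and 72.2 cpm in PWK/PhJ and at 42.0 to 62.3 cpm (median 50.3) in the classical libraries, with a difference of 0.49 ± 0.04 (limma adjusted p = 1.89e-08). Btrc, a ligase subunit that marks period proteins for decay, was at 74.9, 80.3 and 79.8 cpm against 41.6 to 68.8 cpm (median 45.8), with a difference of 0.69 ± 0.03 (limma adjusted p = 1.16e-12), with a mean of 79.8 cpm in CAST/EiJ. Fbxl21, a ligase subunit that acts on cryptochromes, was at 1.60, 1.76 and 1.89 cpm against 0.826 to 1.27 cpm (median 0.966), with a difference of 0.46 ± 0.05 (limma adjusted p = 9.71e-07). Per1 (10.8, 9.71 and 9.96 cpm against 6.54 to 9.64 cpm, median 7.75, difference 0.33 ± 0.07, limma adjusted p = 0.000428) lost its call with both other scalings. Of 13 immediate early genes, with a median of 0.041, 1 was higher, Jun, a subunit of the transcription factor AP-1, at 16.8, 12.3 and 16.3 cpm against 6.41 to 10.6 cpm (median 9.12), with a difference of 0.71 ± 0.09 (limma adjusted p = 2.24e-06), and it was higher than in all 7 strains.

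Of 30 genes of DNA and histone methylation 5 were higher and 3 lower, with a median of 0.095. The catalytic subunits of the repressive complex PRC2 differed in opposite directions. Ezh2, the form of dividing cells, was at 8.79, 8.36 and 7.61 cpm in PWK/PhJ and at 11.4 to 18.04 cpm (median 13.4) in the classical strains, with a difference of -0.73 ± 0.05 (limma adjusted p = 2.08e-10), and Ezh1, the form of resting cells, at 32.8, 32.8 and 32.2 cpm against 21.7 to 26.5 cpm (median 23.9), with a difference of 0.44 ± 0.04 (limma adjusted p = 9.45e-08). Both were separate from the classical range, and CAST/EiJ had nearly the PWK/PhJ levels of both (8.92 and 32.5 cpm). Tet1, which oxidises methylated cytosine, was at 25.1, 25.5 and 27.04 cpm against 27.8 to 34.4 cpm (median 30.3), with a difference of -0.22 ± 0.03 (limma adjusted p = 9.25e-06), a call lost with median-ratio scaling, under which 1 gene of the list was lower (4 higher and 3 lower after quantile normalization). Of 30 genes of BMP and TGF-beta signalling 2 were higher and 5 lower (1 and 4 after quantile normalization), and the median of -0.004 turned to 0.004 after quantile normalization. Grem1, a secreted BMP antagonist, was at 1.35, 1.42 and 1.21 cpm against 0.322 to 0.702 cpm (median 0.604), with a difference of 0.58 ± 0.06 (limma adjusted p = 1.61e-07). The ligand Bmp5 was at 0.428, 0.716 and 0.469 cpm against 1.87 to 2.76 cpm (median 2.36), with a difference of -1.10 ± 0.08 (limma adjusted p = 6.28e-10), with 46.7% of its exon bases opposite Gm26903 and a difference of -1.07 for their sum. Inhba, a subunit of activin, was at 0.856, 0.682 and 0.951 cpm against 0.976 to 2.23 cpm (median 1.40), with a difference of -0.43 ± 0.09 (limma adjusted p = 0.000807), a call lost after quantile normalization or without PWK/PhJ replicate 2 (-0.37, adjusted p = 0.0123).

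Clustered protocadherins, neighbouring genes of chromosome 18 whose products give neurons adhesive identities, were called in both directions. Of 56 genes 7 were higher and 12 lower, with a median of -0.14 (6 and 12 after quantile normalization, 4 and 0 with strain means). The higher genes were 7 of 13 alpha genes, and the lower ones 11 of 21 beta and 1 of 22 gamma genes. A difference between the clusters was not tested. Pcdha1 was at 3.57, 3.21 and 2.88 cpm in PWK/PhJ and at 0.0753 to 0.632 cpm (median 0.248) in the classical libraries, with a difference of 1.71 ± 0.06 (limma adjusted p = 6.76e-14), and Pcdhb14 at 6.24, 6.31 and 6.14 cpm against 11.5 to 19.95 cpm (median 14.4), with a difference of -1.084 ± 0.051 (limma adjusted p = 1.82e-12). Both stood apart from all 7 strains. Alpha genes share their constant exons, so that their calls are not independent, 53.5% of the exon bases of Pcdha1 are those of another alpha gene, and reads there cannot be assigned. The sum of Pcdha1 and its copies was 0.42 higher and still above the classical range. The list as a whole summed to 456, 456 and 452 cpm in PWK/PhJ, just under the classical 458 to 589.5 cpm (median 506).

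Of 365 tested genes named Zfp, most of them zinc finger repressors of repeats and other genes, 37 were higher and 42 lower, shares of 10.1% and 11.5% that lie near those of all genes. Their median of 0.005 turned negative with both other scalings. Zfp783 (chromosome 6, 47943171 to 47955913), annotated as a transcribed pseudogene, was lower after Zfp605 by the most, at 0.711, 0.739 and 0.658 cpm in PWK/PhJ and at 9.08 to 12.6 cpm (median 10.6) in the classical strains, with a difference of -2.80 ± 0.05 (limma adjusted p = 5.47e-19). CAST/EiJ lay between, at 2.35 cpm. Of 415 olfactory and vomeronasal receptor genes listed, 11 were tested, of which 1 was higher and 4 lower, with a median of -0.13. The most abundant of them, Olfr1372-ps1, was lower, averaging 0.865 cpm in PWK/PhJ and 3.76 cpm in the classical libraries. The other lower members were Vmn2r85, Vmn2r84 and Vmn2r57. Olfr482 was at 3.04, 2.57 and 2.06 cpm against 0.200 to 0.520 cpm (median 0.367), with a difference of 1.37 ± 0.07 (limma adjusted p = 7.68e-12), but 56.5% of its words are shared and its sum with copies overlapped. Its classical mean lay under 0.5 cpm, so it was tested only because of its PWK/PhJ level. Of 6 histone genes tested 1 was higher and 2 lower (1 lower with either other scaling), with a median near 0, and all 3 called share over 50% of their words. Hist1h4n, a histone H4 gene, was at 2.87, 2.72 and 2.97 cpm against 6.13 to 10.2 cpm (median 9.29), with a difference of -1.33 ± 0.05 (limma adjusted p = 3.8e-14), and with its copies the difference was -1.46.

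The genes called were spread over the genome, and the share called varied between regions. Whether it varied more than for genes called at random was not tested. In 323 bins of 5 Mb that held at least 20 tested genes, a median of 22.2% of genes were called, and the share ranged from 1.49% to 53.6%. In 13 bins at least 40% of genes were called and in 33 bins under 10%. The highest share was on chromosome 12 from 55 to 60 Mb, with 7 of 28 genes higher and 8 lower, where Srp54c, Srp54a and the non-coding Gm47647 (3.16, 2.63 and 2.61 cpm against 4.70 to 11.2 cpm, median 7.71) differed most. On chromosome 19 from 55 to 60 Mb 11 of 27 genes were higher and 2 lower. Adrb1, the beta-1 adrenergic receptor, was at 12.5, 15.04 and 18.5 cpm in PWK/PhJ and at 4.23 to 8.57 cpm (median 6.25) in the classical libraries, with a difference of 1.13 ± 0.11 (limma adjusted p = 1.07e-07), and Pdzd8, a lipid transfer protein of membrane contacts, at 114, 109 and 104 cpm against 46.2 to 100.5 cpm (median 55.3), with a difference of 0.71 ± 0.04 (limma adjusted p = 2.03e-11). For Pdzd8 the classical strains formed a low group and a high group, A/J and NZO/HlLtJ averaging 98.4 and 92.3 cpm and the other 3 48.1 to 56.1 cpm. The third bin, on chromosome 7 from 65 to 70 Mb, had 6 of 23 genes higher and 5 lower, among them Lrrk1, a kinase of bone resorption, at 4.83, 3.75 and 4.22 cpm against 0.303 to 0.676 cpm (median 0.461), with a difference of 1.84 ± 0.06 (limma adjusted p = 1.31e-14) and above all 7 strains, and Synm, the intermediate filament synemin, at 7.02, 7.52 and 6.43 cpm against 9.999 to 20.7 cpm (median 15.3), with a difference of -0.94 ± 0.08 (limma adjusted p = 2.28e-08).

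**Figure D4:**
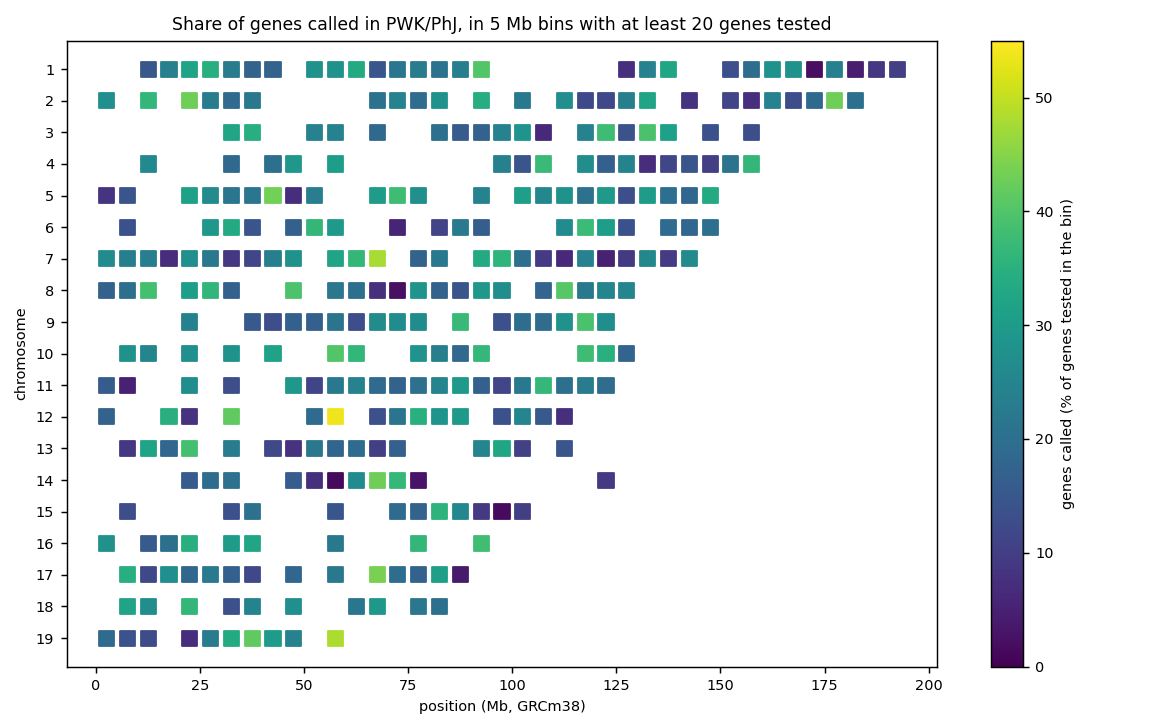
Percentage of tested genes called higher or lower in PWK/PhJ in each 5 Mb bin with at least 20 genes tested (colour), by position in Mb of GRCm38 on the horizontal axis and chromosome on the vertical axis. Shares run from 1.49% to 53.6%, with the highest on chromosome 12 from 55 to 60 Mb and the lowest on chromosome 14 from 55 to 60 Mb.

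Other regions held few genes called. On chromosome 14 from 55 to 60 Mb only Shisa2, an inhibitor of Wnt and FGF receptor maturation, was called among 67 genes. It was at 14.7, 13.3 and 12.5 cpm in PWK/PhJ and at 2.20 to 8.95 cpm (median 6.47) in the classical strains, with a difference of 1.06 ± 0.10 (limma adjusted p = 4.28e-08). Of 61 genes on chromosome 15 from 95 to 100 Mb Ccdc65, of the ciliary dynein regulatory complex, was the only one called, at 3.64, 3.45 and 3.52 cpm against 1.65 to 3.39 cpm (median 2.72), with a difference of 0.40 ± 0.06 (limma adjusted p = 9.95e-06). Of 48 genes on chromosome 1 from 170 to 175 Mb it was Uhmk1, a kinase that binds RNA, at 65.6, 68.7 and 70.7 cpm against 129.9 to 207 cpm (median 197), with a difference of -1.41 ± 0.03 (limma adjusted p = 1.48e-17). Uhmk1 was lower in PWK/PhJ than in all 7 strains, CAST/EiJ being next at 104 cpm. In these 3 bins 11, 17 and 15 genes passed the adjusted p, most of them with overlapping ranges. By whole chromosome, the share called ran from 16.6% on chromosome 14 to 29.2% on chromosome 10. By kind of gene, 22.1% of 12524 protein-coding genes were called, 27.9% of 957 long non-coding RNAs (8.88% higher and 19.02% lower) and 22.5% of 850 processed pseudogenes (14.6% higher and 7.88% lower). The share changed little with the level of expression, from 21.8% of genes at 5 to 20 cpm to 24.5% of genes at 100 cpm or more.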

How the data were processed

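Retinal RNA of 24 mice was sequenced on Illumina instruments from stranded libraries after removal of ribosomal RNA. According to the submitters' notes, STAR was the aligner, GRCm38/mm10 the genome and Partek the program for gene counts (versions not stated). The deposited values are cpm, for which the authors scaled each count by all reads of its library and added 0.0001. Reads of every strain were thus aligned to the genome of C57BL/6J. The study names RefSeq, but the identifiers in the table are of the Ensembl type, and whether counting used strand is not stated. Library totals were recovered from the size of 1 read, and 87.3% to 89.5% of values under 20 reads were whole to within 0.02 reads, so no count test was used.

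In R 4.3.3, limma 3.58.1 (lmFit, and eBayes with a mean trend, two-sided) was fitted to log2(cpm + 1) with strain as a factor, leaving 12 residual degrees of freedom, and p-values were Benjamini-Hochberg adjusted over the 15865 genes tested. X and Y genes (992) and 11945 genes with a mean under 0.5 cpm were left out. Python 3.11.15 with pandas 2.3.3, numpy 2.4.6 and matplotlib 3.10.9 was used for the rest. Shared 31-base words, copies and exon overlaps came from GENCODE M21 (GRCm38, which may not be the annotation the authors used), where 15614 genes tested (98.4%) were matched by symbol and 15464 (99.0%) of these had the same coordinates. No pair of libraries was identical, and all per-sample columns were used.

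The genes named are the 8 protein-coding genes called with the largest increase and the 8 with the largest decrease (mean of at least 5 cpm in either group), the 6 each way that stand furthest apart from all 7 other strains, up to 4 called members of each list, the cell type markers, sex-linked genes and Nnt, the most abundant non-coding gene called each way and up to 3 genes in each bin. Gm7336, Gm3272, other copies, Kdr, Rgr, Kcnq1ot1, Firre, Xk and Rpl21-ps15 were named after their values were seen. Members and lists were chosen with earlier results of these data known. Alternatives were other pseudocounts, filters, scalings, models, p limits and units, and leaving out libraries or strains.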

Additional observations from a re-analysis of the deposited data

Results flagged for a closer look

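Chromosome X lay outside the genes tested in the comparison. With its genes kept in the limma fit, 53 genes of chromosome X were higher and 69 lower in PWK/PhJ, 22.9% of the 532 tested, near the 22.6% of the genes tested in the comparison. These counts are given because they come from data that the comparison does not use. Without the libraries that had high Xist, 50 of 528 genes were higher and 76 lower. Firre, a long non-coding RNA of nuclear architecture, was at 7.18, 7.28 and 6.60 cpm in PWK/PhJ and at 30.6 to 38.5 cpm (median 35.0) in the classical libraries, a difference of -2.16 ± 0.04 (limma adjusted p = 5.89e-18). CAST/EiJ was similarly low (8.94 cpm) and WSB/EiJ was not (31.9 cpm). Xk, a membrane transport protein of red cells, was at 6.91, 6.60 and 6.44 cpm against 1.12 to 2.86 cpm (median 1.61), a difference of 1.48 ± 0.06 (limma adjusted p = 1.17e-13). The largest increase was that of the processed pseudogene Rpl21-ps15, at 30.97, 27.07 and 25.08 cpm in PWK/PhJ and at most 0.676 cpm (median 0.0925) in the classical libraries. It was tested only because of its PWK/PhJ level.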

How the results depend on the processing

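With genes of a mean of at least 5 cpm (9005 tested), 1053 genes were higher and 981 lower, 3826 passed the adjusted p and 810 stood apart from 7 strains, fewer because fewer genes were tested. With PWK/PhJ against the 15 classical libraries as 2 groups, 3827 genes passed the adjusted p, and with strain means as the unit (6 values, of which PWK/PhJ is 1) 168 were higher, 202 lower and 370 passed. Leaving out 1 library at a time gave 1769 to 2060 genes higher, 1822 to 2011 lower, 5355 to 6878 past the adjusted p and 1279 to 1478 apart from 7 strains. Leaving out 1 classical strain at a time gave 1892 to 2036, 1961 to 2055 and 6214 to 6641. The remaining alternatives stayed within 1.5 times of each count. Of the 3584 genes called, 3423 were also called with median-ratio scaling, 3252 with quantile normalization and 3250 with 2 groups. Among alternatives chosen after seeing the data, leaving out the libraries with high Xist gave 1731 higher, 1962 lower and 1143 apart from 7 strains, genes with under 10% of words shared (11576) gave 1285, 1250 and 997, and eBayes without a mean trend 1770, 1814 and 1402. The naming rules picked 126 genes, some of which, such as Hmox1, Itgam and Hist1h4m, are not described above. Of these 126 genes 0 reversed, and 119 were called in every fit that left out 1 library. A call was lost by 5 with median-ratio scaling, 9 with quantile normalization, 12 with 2 groups and 96 with strain means. No paired analysis was possible because replicate numbers were given in accession order and pair no mice. The study states that libraries were pooled for sequencing in randomized complete blocks, but the labels name no block, so none was fitted. Depth limits genes near 0.0384 to 0.0512 cpm, the size of 3 reads.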
